A study of Sus scrofa with 20 samples.

Results

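The lymphoid and myeloid leukocyte markers described here are 37 genes used to tell white blood cells apart from the other cells of a tissue. They were chosen by name, and a gene listed more than once in the count table was represented by its row with the highest mean. Of the 37 genes, 35 were found among the 30345 gene rows used: 19 of T and NK cells, 5 of B cells, 9 of myeloid cells, and PTPRC and LAPTM5, which are made by nearly all leukocytes. ZAP70 and CYBB were not analysed here. A filter on low counts kept 17745 genes for testing, among them 33 members, and left out the B cell genes MS4A1 and PAX5.

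Messenger RNA was sequenced from the uterus of 20 crossbred Large White by Landrace sows, 1 library per sow, collected 6 days after the onset of estrus. The FR1 sows were inseminated with only the sperm-rich fraction of the ejaculate, the FR2 sows with the rich and intermediate fractions, and the FR3 sows with the rich, intermediate and poor fractions. The control sows were not inseminated. Each group held 5 sows, all labelled wild type, and the semen came from 3 Pietrain boars. Semen was deposited beyond the cervix at the onset of estrus and daily while the sow stood. The horns were also searched for embryos, but the result for each sow was not used here, so an effect of semen and an effect of early pregnancy cannot be told apart. The tissue is labelled uterus as a whole, and leukocytes are a small part of it.

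T cells recognise antigen through the T cell receptor, which signals through the CD3 chains and the kinase LCK. Cytotoxic T cells and NK cells kill target cells with granules of perforin and granzymes. B cells signal through CD79A and CD79B, and macrophages depend on the growth factor receptor CSF1R. In pigs, NK cells carry CD8A without CD3. Semen is known to draw leukocytes, neutrophils first, into the uterine lumen of the pig, and the endometrium holds resident T cells, NK cells and macrophages. In whole tissue, fewer cells of a type and less of a transcript per cell cannot be told apart.

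The total count per library was 36400869 to 53876957 in FR1, 39339926 to 47314594 in FR2, 32978951 to 62939036 in FR3 and 39919373 to 50859646 in the controls. Levels are given as CPM, counts scaled to library size with trimmed mean of M values factors, which do not correct for gene length, so levels are compared between sows and not between genes. The tissue makeup differed between libraries. The summed CPM of 15 markers of uterine epithelium was 1800 in FR1_1, 1840 in FR1_4, 2140 in FR2_3 and 1700 in FR3_4, against 3000 or more in each of the other libraries. The summed CPM of 10 smooth muscle markers was lowest in CONTROL_1, at 1330, and highest in CONTROL_2, at 37000. All libraries carry the same batch label.

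The leukocyte markers varied widely between sows of the same group. Over the 33 members tested, CONTROL_4 was the highest library of all 20 for 10 members and above the 20-library median for 32. FR1_5 was highest for 8 members, of which 7 were T and NK genes, and CONTROL_3 was highest for 6. At the other end, FR1_4 was among the 3 lowest libraries for 20 members, FR1_1 for 15 and CONTROL_2 for 13. The spread of log2(CPM + 0.5) was larger among the 5 controls than among the 15 inseminated sows for 26 of the 33 members (78.8%), and this was also so for 75% of all genes tested.

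**Figure D1:**
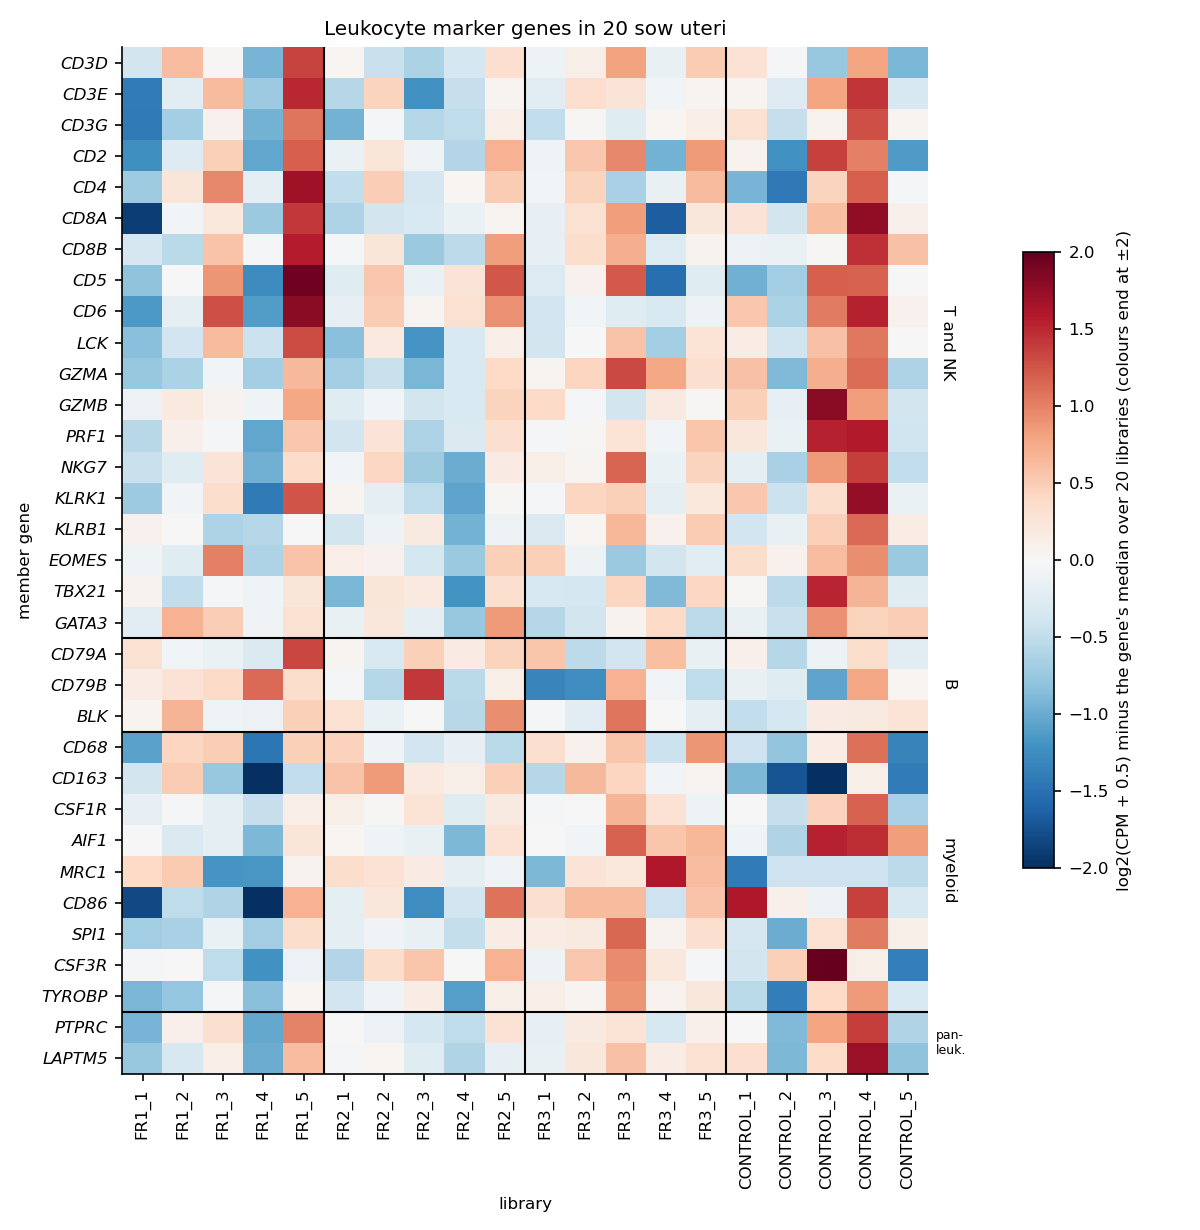
Level of the 33 tested leukocyte markers (rows, grouped by lineage) in the 20 libraries (columns, grouped by treatment), shown as log2(CPM + 0.5) minus the gene's own median over all libraries, with colours ending at 2 in either direction. FR1_5 and CONTROL_4 are red across the T and NK rows, FR1_1 and FR1_4 are mostly blue, and CD79B is instead reddest in FR2_3 (7.41 CPM) and FR1_4 (5.95 CPM).

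The median deviation of the 19 T and NK genes from their 20-library medians was 1.2 in FR1_5, 1.18 in CONTROL_4 and 0.72 in CONTROL_3, and it was lowest in FR1_4, at -0.72, and FR1_1, at -0.71, all on the log2 scale. The median over the 9 myeloid genes was highest in CONTROL_4, at 1.04, and FR3_3, at 0.67, and lowest in FR1_4, at -1.17. FR1_5, with the highest T and NK level, had a myeloid deviation of 0.14. The 3 B genes tested had their highest median deviation in FR3_3, at 0.69, and their lowest in FR2_4, at -0.54. FR1_1 and FR1_4 are also among the 4 libraries with little epithelial signal, whereas CONTROL_2, which was among the 3 lowest libraries for 13 members, had an epithelial sum of 5890 CPM. The part of tissue makeup in these differences was not tested.

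**Figure D2:**
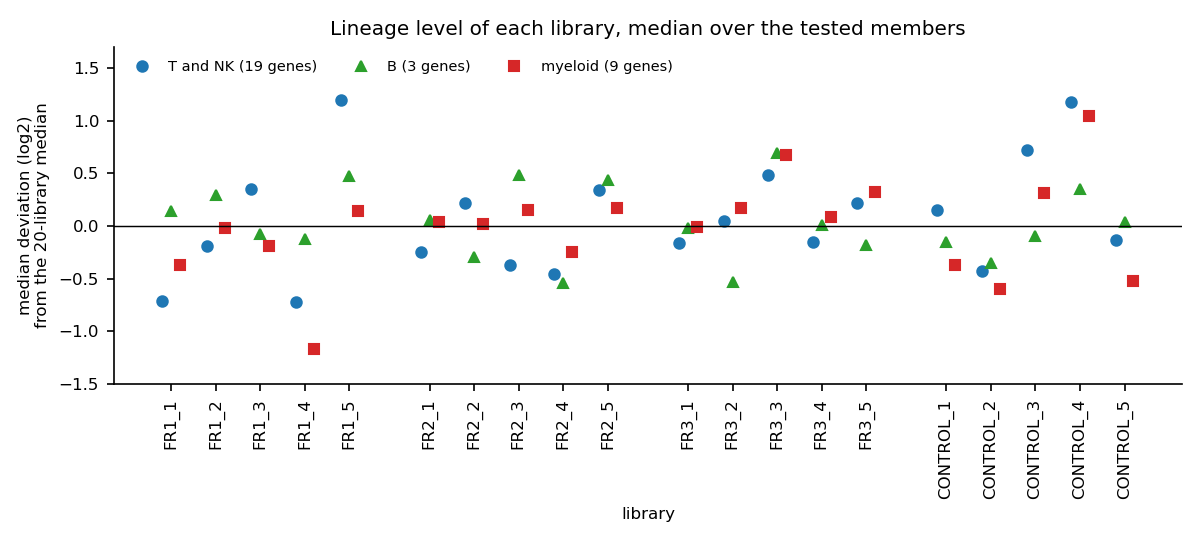
Median deviation of the T and NK (19 genes), B (3 genes) and myeloid (9 genes) members from their 20-library medians, in log2 units, for each library. T and NK and myeloid points are both high in CONTROL_4 (1.18 and 1.04) and both low in FR1_4 (-0.72 and -1.17). In FR1_5 the T and NK point is at 1.2, the B point at 0.47 and the myeloid point at 0.14.

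All inseminated sows were first set against the controls. None of the 33 members was called higher and 1 was called lower, the granulocyte receptor gene CSF3R, by edgeR's quasi-likelihood test with Benjamini-Hochberg adjustment over all genes and a threshold of 0.05. Among all genes tested, 2.87% were called higher and 8.2% lower in this comparison. At an unadjusted p below 0.05, 2 members were higher (CD163 and MRC1) and 3 lower (CSF3R, AIF1 and PRF1), against 9.44% of all genes higher and 16.6% lower. Fold changes were negative for 25 of the 33 members (75.8%) and for 54% of all genes, with a median of -0.41 against -0.05 on the log2 scale. No member had inseminated and control levels that did not overlap, against 0.265% of all genes that lay wholly higher and 0.203% wholly lower. Without CONTROL_4 the median over the members was 0.03, and without both CONTROL_3 and CONTROL_4, a choice made after seeing the data, 28 of the 33 members were positive with a median of 0.33.

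**Figure D3:**
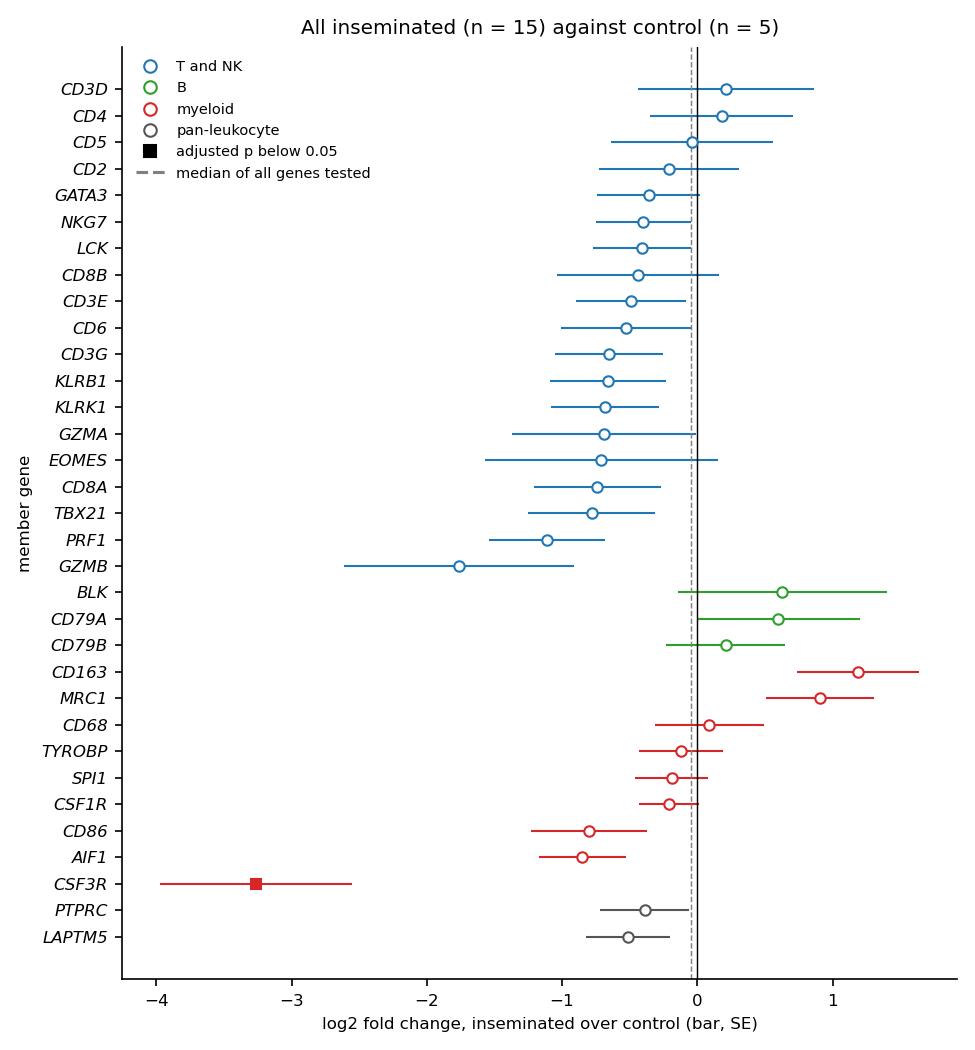
Log2 fold change of each tested member in all inseminated sows (n = 15) over controls (n = 5), with bars of 1 standard error and the members grouped by lineage; the dashed line is the median of all genes tested, -0.05. Only CSF3R, at -3.26, has an adjusted p below 0.05, and it rests on 1 control library; CD163 (1.19) and MRC1 (0.91) lie farthest to the right.

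Among the T and NK genes, 0 of 19 passed the threshold in either direction in all inseminated sows against controls, and 1 (PRF1) was lower at an unadjusted p below 0.05. Fold changes were negative for 17 of the 19, with a median of -0.53. This median was -0.16 without CONTROL_4 and -0.76 without CONTROL_2, and without both CONTROL_3 and CONTROL_4 it was 0.14, with 16 of the 19 genes positive.

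The CD3 chains carry the signal of the T cell receptor into the cell. CD3E had 1.25, 3.48, 6.64, 2.31 and 12.7 CPM in FR1 sows, 2.63, 5.81, 1.49, 2.87 and 4.3 CPM in FR2 sows, and 3.44, 5.35, 5.04, 3.97 and 4.27 CPM in FR3 sows, against 4.27, 3.35, 7.45, 12 and 3.22 CPM in control sows. The 4 groups overlapped, with the highest values in FR1_5 and CONTROL_4 and the narrowest range in FR3. The fold change of CD3E in inseminated sows over controls was -0.49 ± 0.41 (log2, SE; 95% interval -1.36 to 0.38; adjusted p = 0.485, edgeR). CD3G averaged 2.05 ± 1.17 CPM in inseminated sows (SD, n = 15) and 3.21 ± 1.89 CPM in controls (SD, n = 5), and CD3D averaged 0.713 ± 0.559 CPM and 0.59 ± 0.53 CPM in the same groups. CD3D, CD3E and CD3G are neighbouring genes in the RefSeq annotation of Sscrofa11.1, as are CD8A and CD8B, and CD5 and CD6.

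CD4 and CD8 are the co-receptors of helper and cytotoxic T cells. CD8A had 0.552, 3.23, 4.01, 1.82 and 9.83 CPM in FR1 sows, 2.04, 2.52, 2.66, 3.04 and 3.57 CPM in FR2 sows, and 2.96, 4.28, 6.44, 0.742 and 4.03 CPM in FR3 sows, against 4.15, 2.5, 5.43, 12.7 and 3.66 CPM in control sows. Of the 15 inseminated sows, 12 lay below the control median, yet FR1_5 and FR3_3 lay above 4 of the 5 controls. The difference was -0.74 ± 0.47 (log2, SE; 95% interval -1.74 to 0.26; adjusted p = 0.342, edgeR). CD8B had a fold change of -0.44 ± 0.60 and CD4 one of 0.18 ± 0.53, both within the spread between sows.

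CD2, an adhesion receptor, and CD5 and CD6, scavenger-type receptors that tune T cell receptor signals, reached their highest inseminated level in FR1_5, at 6.06, 8.71 and 7.43 CPM. CD6 ranged from 0.528 to 7.43 CPM in FR1 sows, 1.54 to 3.8 CPM in FR2 sows and 1.25 to 1.71 CPM in FR3 sows, against 0.971 to 6.1 CPM in controls. It was the T and NK gene with the smallest p in FR3 against control, at -1.12 ± 0.62 (log2, SE; adjusted p = 0.31, edgeR), with FR3 values inside the control range. LCK, the kinase that starts T cell receptor signalling, had a lowest, median and highest level of 1.49, 3.13 and 10.7 CPM in the 15 inseminated sows, against 4.5, 2.91, 6.24, 8.85 and 3.98 CPM in the 5 controls. Its fold change was -0.41 ± 0.36 (adjusted p = 0.52, edgeR), and in FR2 against FR1 it was the T and NK gene with the smallest p, at -0.67 ± 0.46 (adjusted p = 1, edgeR).

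Perforin and the granzymes are the killing proteins of cytotoxic granules. PRF1 had 0.504, 1.09, 0.936, 0.22 and 1.64 CPM in FR1 sows, 0.651, 1.27, 0.459, 0.705 and 1.35 CPM in FR2 sows, and 0.957, 1, 1.29, 0.92 and 1.67 CPM in FR3 sows, against 1.24, 0.843, 3.81, 3.94 and 0.625 CPM in control sows. CONTROL_3 and CONTROL_4 lay above every inseminated sow, while the other 3 controls lay within the inseminated range. The difference was -1.11 ± 0.43 (log2, SE; adjusted p = 0.106, edgeR). It passed the threshold without CONTROL_5 (-1.36 ± 0.42, adjusted p = 0.037), and it was -0.80 without CONTROL_3 and -0.75 without CONTROL_4.

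GZMB showed the most negative fold change of the T and NK genes, -1.76 ± 0.85 (log2, SE; adjusted p = 0.199, edgeR), at levels from 0 to 0.601 CPM in inseminated sows and from 0 to 1.74 CPM in controls. Its highest value was in CONTROL_3, as was that of TBX21, a transcription factor of cytotoxic and type 1 helper cells, at 4.08 CPM. GZMA is uncertain, because the table lists 2 neighbouring genes under that symbol and near-identical copies can split reads. The row used ranged from 0.0959 to 1.09 CPM in FR1 sows, 0.0383 to 0.837 CPM in FR2 sows and 0.547 to 2.02 CPM in FR3 sows, against 0.0511 to 1.7 CPM in controls. It had the smallest p of all members in FR3 against FR2, at 1.78 ± 0.89 (log2, SE; adjusted p = 0.67, edgeR), with FR3 and FR2 values overlapping. In the other GZMA row, FR3 sows had 0.205, 0.752, 0.153, 0 and 0.182 CPM, against 0.304, 0.624, 0, 0.267 and 0.478 CPM in FR2 sows, so the FR3 values were not the higher ones there.

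NKG7, a granule protein of NK and cytotoxic T cells, had a lowest, median and highest level of 2.09, 4.83 and 11 CPM in inseminated sows, against 4.04, 2.79, 8.83, 12.9 and 3.15 CPM in the 5 controls. Its control mean was raised by CONTROL_3 and CONTROL_4, and 10 of 15 inseminated sows lay above the control median although the fold change was negative (-0.40 ± 0.35, adjusted p = 0.516, edgeR). KLRK1, the activating NK receptor NKG2D, averaged 3.42 ± 1.82 CPM in inseminated sows (SD, n = 15) and 5.4 ± 4.02 CPM in controls (SD, n = 5), where CONTROL_4 stood at 12.3 CPM. The remaining genes of this lineage, KLRB1, EOMES and GATA3, had fold changes of -0.66 ± 0.43, -0.71 ± 0.86 and -0.36 ± 0.38, and none passed the threshold.

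Of the B cell genes, 3 of 5 could be tested, and 0 of 3 passed the threshold in either direction in all inseminated sows against controls, with 0 at an unadjusted p below 0.05. All 3 fold changes were positive, with a median of 0.6 that lay between 0.32 and 0.81 when single libraries were left out, but each had a 95% interval that included 0. CD79A, the first of the B cell receptor's signalling chains, had 0.552, 0.32, 0.283, 0.198 and 1.67 CPM in FR1 sows, 0.391, 0.192, 0.689, 0.462 and 0.657 CPM in FR2 sows, and 0.752, 0.0911, 0.153, 0.79 and 0.273 CPM in FR3 sows, against 0.419, 0.0767, 0.298, 0.587 and 0.232 CPM in control sows. Of the 15 inseminated sows, 5 lay above the highest control, and the fold change was 0.60 ± 0.60 (log2, SE; adjusted p = 0.574, edgeR).

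CD79B, its partner chain, had 2.76, 3.11, 3.35, 5.95 and 3.25 CPM in FR1 sows, 2.37, 1.49, 7.41, 1.53 and 2.71 CPM in FR2 sows, and 0.684, 0.752, 4.27, 2.34 and 1.58 CPM in FR3 sows, against 2.16, 1.99, 0.917, 4.53 and 2.55 CPM in control sows. FR1_4 and FR2_3 had the highest values, although FR1_4 was the lowest library for 7 other members. The fold change was 0.21 ± 0.44 for all inseminated sows and -0.93 ± 0.54 in FR3 against FR1 (adjusted p = 0.622, edgeR). BLK, a B cell kinase, ranged from 0 to 1.05 CPM in inseminated sows and from 0.0209 to 0.394 CPM in controls, and its fold change was 0.63 ± 0.77 (adjusted p = 0.657, edgeR).

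MS4A1, which encodes the B cell surface protein CD20, was at 0 in 11 of 20 libraries, 8 of them inseminated and 3 control. At these depths a count of 0 allows a level of up to 0.0484 to 0.0909 CPM, taking 3 counts as the limit. Its highest level was 0.408 CPM in inseminated sows, in FR2_2, and 0.55 CPM in controls, in CONTROL_3. PAX5, the transcription factor that fixes B cell identity, was at 0 in 5 inseminated libraries and no control, with highest levels of 0.306 CPM in FR2_3 and 1.05 CPM in CONTROL_3. Fitted without the filter on low counts, PAX5 had a fold change of -1.90 ± 0.98 (adjusted p = 0.247) and MS4A1 one of -0.83 ± 1.34 (adjusted p = 0.812) by edgeR.

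Among the 9 myeloid genes, 0 were called higher and CSF3R was called lower in all inseminated sows against controls, and 6 of the 9 fold changes were negative, with a median of -0.19. Without CONTROL_4 that median turned to 0.17, with 6 of the 9 positive, and without CONTROL_3 it was -0.01. CSF3R is the receptor for granulocyte colony-stimulating factor and is made mostly by neutrophils and monocytes. It had 1.51, 1.6, 0.958, 0.395 and 1.42 CPM in FR1 sows, 0.89, 2.13, 2.55, 1.56 and 2.85 CPM in FR2 sows, and 1.44, 2.51, 3.51, 1.9 and 1.52 CPM in FR3 sows, against 1.11, 2.38, 77.3, 1.76 and 0.301 CPM in control sows. CONTROL_3 alone stood apart, and the other 4 controls lay within or near the range of the inseminated sows. The fitted fold change was -3.26 ± 0.71 (log2, SE; adjusted p = 0.00605, edgeR), and without CONTROL_3 it was 0.31 ± 0.45 (adjusted p = 0.758). limma-voom gave -0.66 ± 0.78 (adjusted p = 0.647), an exact rank-sum test gave an adjusted p of 1, and DESeq2 returned no p for this gene.

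CONTROL_3 was the highest of the 20 libraries in 2 of 29 other monocyte and macrophage genes and in 3 of 13 other neutrophil genes, of which the 3 described here were chosen after their values were seen. By the same count CONTROL_4 was the highest in 10 of the 29 and FR2_1 in 3 of the 13, so CONTROL_3 was not set apart by it. CD14, a co-receptor for bacterial lipopolysaccharide, had 57.8 CPM in CONTROL_3 and at most 5.3 CPM in the other controls, and LYZ, lysozyme, had 366 CPM there and at most 36 CPM in the other controls. IL1R2, a decoy receptor for interleukin 1, had 28 CPM in CONTROL_3 and at most 0.608 CPM in the other controls. Other myeloid genes had higher levels elsewhere: LTF was at 0 CPM in CONTROL_3 and 89.1 CPM in CONTROL_4, MMP8 was at 2.52 CPM in CONTROL_3 and 32.5 CPM in CONTROL_2, and CD163 had its lowest level of all 20 libraries in CONTROL_3. The neutrophil elastase gene ELANE and myeloperoxidase gene MPO, made in neutrophil precursors, were at 0 in 16 and 18 of the 20 libraries. S100A8, which mature neutrophils make in abundance, reached 0.115 CPM in CONTROL_3 and 0.548 CPM over all libraries.

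CD163, the haptoglobin-haemoglobin scavenger receptor of tissue macrophages, was the member with the most positive fold change. It had 5.18, 9.91, 3.83, 1.08 and 4.73 CPM in FR1 sows, 10.4, 12.8, 7.91, 7.44 and 9.74 CPM in FR2 sows, and 4.47, 11, 9.38, 6.57 and 7.12 CPM in FR3 sows, against 3.44, 1.71, 0.779, 7.46 and 2.29 CPM in control sows. Of the 15 inseminated sows, 14 lay above the control median and 7 above the highest control, CONTROL_4. FR1_4 alone lay below the control median. The fold change was 1.19 ± 0.45 (log2, SE; 95% interval 0.25 to 2.13; adjusted p = 0.0935, edgeR), just outside the threshold. Other fits passed it: DESeq2 gave 1.16 ± 0.41 (adjusted p = 0.0346), and edgeR without CONTROL_4 gave 1.81 ± 0.44 (adjusted p = 0.0146) and without FR1_4 gave 1.28 ± 0.40 (adjusted p = 0.0475). limma-voom gave an adjusted p of 0.0774, and an exact 2-sided rank-sum test gave p = 0.0193 and an adjusted p of 0.177. Over all 34 alternatives, some of which repeat the main fit, the fold change stayed between 0.68 and 1.81. In 29 of them CD163 did not pass the threshold. By edgeR it was 0.92 ± 0.43 (adjusted p = 0.231) without CONTROL_3 and 0.68 ± 0.45 (adjusted p = 0.399) without CONTROL_2 and CONTROL_3.

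MRC1, the macrophage mannose receptor, had 4.96, 5.45, 1.33, 1.34 and 3.82 CPM in FR1 sows, 4.78, 4.58, 4.15, 3.11 and 3.47 CPM in FR2 sows, and 1.73, 4.47, 4.29, 12 and 5.82 CPM in FR3 sows, against 1.07, 2.61, 2.61, 2.62 and 2.38 CPM in control sows. The controls were tightly grouped apart from CONTROL_1, and 12 of the 15 inseminated sows lay above the highest control. FR1_3, FR1_4 and FR3_1 did not. The fold change was 0.91 ± 0.40 (log2, SE; 95% interval 0.07 to 1.75; adjusted p = 0.149, edgeR). DESeq2 gave an adjusted p of 0.0995, limma-voom one of 0.263, and the exact 2-sided rank-sum test p = 0.0254 with an adjusted p of 0.2.

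**Figure D4:**
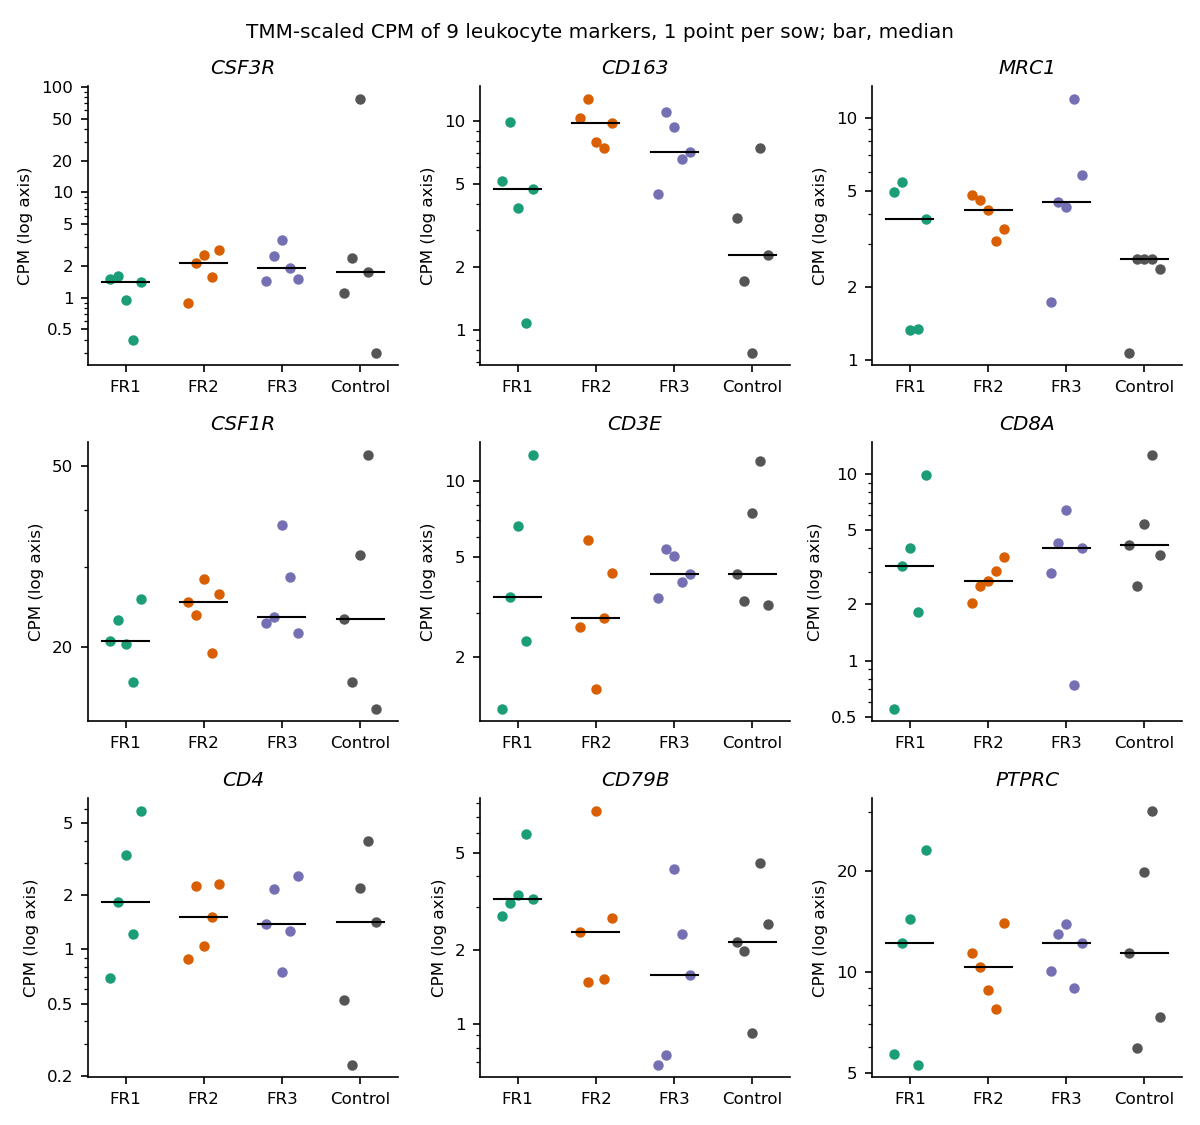
CPM of 9 members on logarithmic axes, with 1 point per sow and a bar at the median of each group (n = 5 each). MRC1 lies above the highest control in 5 FR2 and 4 FR3 sows and CD163 in 4 FR2 and 2 FR3 sows, CSF3R has a single control at 77.3 CPM, and CD3E, CD8A, CD4, CD79B, CSF1R and PTPRC overlap between all 4 groups.

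The other macrophage genes did not pass the threshold either, and most of their fold changes were near 0 or negative. CSF1R, the growth factor receptor on which macrophages depend, had 20.6, 22.9, 20.3, 16.7 and 25.5 CPM in FR1 sows, 25.1, 23.5, 28.2, 19.4 and 26.2 CPM in FR2 sows, and 22.6, 23.3, 37.1, 28.5 and 21.4 CPM in FR3 sows, against 23, 16.7, 31.9, 53 and 14.6 CPM in control sows. All inseminated values lay between the lowest and highest control, and the fold change was -0.21 ± 0.22 (log2, SE; 95% interval -0.68 to 0.25; adjusted p = 0.583, edgeR). CD68, a lysosomal protein of macrophages, had a fold change of 0.09 ± 0.40 (adjusted p = 0.917). AIF1, a calcium-binding protein of macrophages also called IBA1, had a lowest, median and highest level of 1.94, 4.01 and 9.86 CPM in inseminated sows, against 3.81, 2.5, 12.7, 12.2 and 7.59 CPM in controls, and 14 of 15 inseminated sows lay below the control median. Its fold change was -0.85 ± 0.32 (adjusted p = 0.0962, edgeR), and it was called lower without CONTROL_1 (adjusted p = 0.0468) or without CONTROL_2 (adjusted p = 0.0269). No other fit that left out 1 library called AIF1, and neither did DESeq2 or limma-voom. An exact 2-sided rank-sum test gave p = 0.23 and an adjusted p of 0.532.

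CD86, a co-stimulatory ligand of antigen-presenting cells, ranged from 1.25 to 14.4 CPM in inseminated sows and from 5.12 to 20.7 CPM in controls, with a fold change of -0.80 ± 0.43 (adjusted p = 0.256, edgeR). SPI1, the myeloid transcription factor PU.1, and TYROBP, an adaptor of myeloid and NK receptors, had fold changes of -0.19 ± 0.27 and -0.12 ± 0.31. Both were highest in FR3_3, at 25 and 14.5 CPM, followed by CONTROL_4, at 23 and 14.3 CPM.

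PTPRC, the leukocyte common antigen CD45, had 5.73, 12.2, 14.4, 5.31 and 23.2 CPM in FR1 sows, 11.4, 10.4, 8.84, 7.8 and 14 CPM in FR2 sows, and 10.1, 13, 13.9, 8.97 and 12.2 CPM in FR3 sows, against 11.4, 5.95, 19.9, 30.3 and 7.34 CPM in control sows. Neither of the 2 pan-leukocyte genes passed the threshold, and neither had an unadjusted p below 0.05. The fold change of PTPRC was -0.39 ± 0.33 (log2, SE; 95% interval -1.10 to 0.31; adjusted p = 0.493, edgeR). LAPTM5, a lysosomal protein of blood cells, had a lowest, median and highest level of 23.7, 46.4 and 73.7 CPM in inseminated sows, against 60, 25.2, 61.6, 159 and 27.2 CPM in controls. Its fold change was -0.51 ± 0.31 (adjusted p = 0.324), and without CONTROL_4 those of PTPRC and LAPTM5 were 0.04 and 0.11.

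Each inseminated group was then set against the controls, which are the same 5 sows in all 3 comparisons. In FR1 against control, 0 of 33 members were called in either direction by edgeR, DESeq2, limma-voom and the exact rank-sum test, while edgeR called 0.609% of all genes higher and 1.99% lower. At an unadjusted p below 0.05, 0 members were higher and 4 lower, against 6.3% of all genes higher and 11.9% lower: CSF3R (-3.81 ± 1.08, adjusted p = 0.0605), AIF1 (-1.14 ± 0.41), CD86 (-1.35 ± 0.56) and PRF1 (-1.25 ± 0.57). Without CONTROL_1, CONTROL_2, CONTROL_4 or CONTROL_5, each left out alone, CSF3R was called lower in FR1, and each of those fits kept CONTROL_3. The median was -0.32 for the 19 T and NK genes, 0.67 for the 3 B genes and -0.48 for the 9 myeloid genes, against -0.03 for all genes. Fold changes were negative for 16 of the 19 T and NK genes, against 53.1% of all genes. Without FR1_5 the T and NK median was -0.84, and without CONTROL_4 it was -0.01, while the myeloid median was -0.11 without CONTROL_4.

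In FR2 against control, 0 of 33 members were called by edgeR, which called 1.57% of all genes higher and 3.98% lower. At an unadjusted p below 0.05, 1 member was higher and 3 were lower, against 8.35% of all genes higher and 13.5% lower. CD163 was closest to the threshold, at 1.62 ± 0.52 (log2, SE; adjusted p = 0.0714, edgeR), and all FR2 sows but FR2_4 lay above the highest control. DESeq2 (1.57 ± 0.50, adjusted p = 0.0201) and limma-voom (1.94 ± 0.52, adjusted p = 0.0426) called it higher, and so did edgeR without CONTROL_4 (2.24 ± 0.49, adjusted p = 0.0166). MRC1 was the only member whose FR2 and control values did not overlap, with FR2 levels from 3.11 to 4.78 CPM and control levels from 1.07 to 2.62 CPM, in the direction in which 2.51% of all genes did not overlap. Its fold change was 0.83 ± 0.46 (adjusted p = 0.308, edgeR). Lower calls appeared in FR2 for CSF3R without CONTROL_1 or CONTROL_5, and for AIF1 without CONTROL_2. The T and NK median was -0.80, with 18 of 19 genes negative, and it was -0.42 without CONTROL_4, against -0.04 for all genes, of which 52.9% were negative. The median was 0.56 for the 3 B genes and -0.21 for the 9 myeloid genes, and the myeloid median was 0.15 without CONTROL_4.

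In FR3 against control, 0 of 33 members were called by edgeR, which called 1.43% of all genes higher and 2.85% lower. At an unadjusted p below 0.05, MRC1 and CD163 were higher and CSF3R lower, against 8.63% of all genes higher and 12.7% lower. MRC1 stood at 1.33 ± 0.47 (log2, SE; adjusted p = 0.106, edgeR), with FR3_4 at 12 CPM, and DESeq2 called it higher (1.30 ± 0.47, adjusted p = 0.0491). CD163 stood at 1.29 ± 0.51 (adjusted p = 0.151, edgeR) and was called higher without CONTROL_4 (1.90 ± 0.49, adjusted p = 0.0451). CSF3R was called lower without CONTROL_5. The median was -0.48 for T and NK genes, 0.35 for B genes and 0.26 for myeloid genes, against -0.05 for all genes. Fold changes were negative for 16 of the 19 T and NK genes, against 54.3% of all genes. The T and NK median was -0.06 without CONTROL_4, with 8 of 19 genes positive, and the B median was -0.28 without FR3_3. The myeloid median was -0.02 without FR3_3 and 0.60 without CONTROL_4. An exact rank-sum test of 5 against 5 sows cannot give a p below 0.00794, and it called no gene of the whole table in FR1, FR2 or FR3 against control.

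Between the semen fractions no member was called. FR2 against FR1 asks what the intermediate fraction adds, and edgeR called 0% of all genes in either direction. At an unadjusted p below 0.05 there were 0 members in either direction, against 0.406% of all genes higher and 0.327% lower. The smallest p belonged to CD163, at 0.96 ± 0.51 (log2, SE; 95% interval -0.12 to 2.04; adjusted p = 1, edgeR), for which FR2 sows averaged 9.65 ± 2.13 CPM and FR1 sows 4.94 ± 3.2 CPM (SD, n = 5 each). T and NK genes had negative fold changes in 18 of 19 cases, against 48.3% of all genes, with a median of -0.31, which was 0.06 without FR1_5. Myeloid genes were positive in 8 of 9 cases, with a median of 0.25, and all 3 B genes were negative, with a median of -0.25. FR3 against FR2 asks what the poor fraction adds, and edgeR called 0% of all genes higher and 0.00564% lower, again with 0 members at an unadjusted p below 0.05, against 3.21% of all genes higher and 4.15% lower. The T and NK median was 0.37, with 15 of 19 genes positive and 4 negative, against 49.5% of all genes negative, and it was 0.19 without FR3_3. The myeloid median was 0.50, with 8 of 9 genes positive, and it was 0.31 without FR3_3. The B median was -0.21, with 2 of 3 genes negative. DESeq2 and limma-voom also called 0 members in these comparisons and in FR3 against FR1.

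FR3 against FR1, the largest difference in semen composition, also gave 0 members called, with 0% of all genes called higher and 0% lower by edgeR. At an unadjusted p below 0.05, 2 members were higher and 0 lower, against 3.9% and 4.39% of all genes. Both were myeloid. SPI1 had 12.2, 12.4, 25, 11.5 and 13.8 CPM in FR3 sows, against 6.57, 6.83, 9.95, 6.54 and 14.2 CPM in FR1 sows. All FR3 sows lay above 4 of the FR1 sows, and FR1_5 lay within the FR3 range. The fold change was 0.77 ± 0.33 (log2, SE; 95% interval 0.06 to 1.47; adjusted p = 0.596, edgeR). TYROBP had 8.52, 8, 14.5, 8.13 and 9.09 CPM in FR3 sows, against 3.86, 4.31, 7.47, 4.08 and 7.92 CPM in FR1 sows. Its groups did not overlap, although FR1_5 and FR3_2 were nearly level, in the direction in which 1.01% of all genes did not overlap, and its fold change was 0.80 ± 0.38 (adjusted p = 0.598, edgeR).

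All 9 myeloid genes had positive fold changes in FR3 against FR1, where 49.3% of all genes were negative, with a median of 0.77 against 0.01 for all genes, from 0.33 for CSF1R to 0.98 for CD86. The median was 0.54 without FR3_3 and 0.94 without FR1_5. The T and NK median was -0.11, at -0.41 without FR1_4 and 0.39 without FR1_5, and all 3 B genes were negative, with a median of -0.54 that turned to 0.14 without FR1_5 and was -0.96 without FR3_4. The 15 epithelial markers were also all positive in this comparison, with a median of 0.47 and 0 called, and 10 of 10 smooth muscle markers were negative, with a median of -0.48. The summed red blood cell markers had a median of 232 CPM in FR3 sows (75.6 to 1910, highest in FR3_3) and of 67.6 CPM in FR1 sows (27.8 to 74.8). The part of blood and of tissue makeup in the myeloid difference was not tested.

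A wider set of leukocyte genes held some that passed the threshold in all inseminated sows against controls, where 2.87% of all genes were called higher and 8.2% lower. Of 29 other T and NK genes tested, 0 were called higher and 3 lower: SKAP1, an adaptor in T cell receptor signalling (-1.40 ± 0.31, adjusted p = 0.00589), IL2RB, the interleukin 2 receptor beta chain (-1.96 ± 0.48, adjusted p = 0.0122), and CD69, an early activation marker (-4.00 ± 0.98, adjusted p = 0.0127, all by edgeR). SKAP1 had 4.44 to 14.1 CPM in inseminated sows, all below the control median, against 34, 9.48, 14.5, 37.6 and 9.93 CPM in controls, and it remained called in each of 20 fits that left out 1 library. IL2RB had 31.8, 3.25, 14.3, 47.5 and 1.76 CPM in controls and at most 12.2 CPM in inseminated sows, and it was not called without CONTROL_4. CD69 had 0.0838, 5.75, 4.63, 0.461 and 0 CPM in controls and at most 0.574 CPM in inseminated sows, and it was not called without CONTROL_2 or without CONTROL_3. CD38, an ectoenzyme of plasma cells that other cell types also make, was called lower (-2.92 ± 0.41, adjusted p = 0.000246, edgeR), with 0.307 to 2.79 CPM in inseminated sows, against 7.94, 15, 11.7, 4.38 and 1.13 CPM in controls. CD38 remained called in each of 20 edgeR fits that left out 1 library (-3.2 to -2.57), but the exact rank-sum test gave an adjusted p of 0.102.

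JCHAIN, which links the chains of secreted IgA and IgM and marks plasma cells, was the 1 gene called higher among 19 other B and plasma cell genes. It had 19.8, 29.7, 21.9, 12.8 and 62.2 CPM in FR1 sows, 50.3, 116, 27.7, 16.9 and 53.9 CPM in FR2 sows, and 14.8, 22.3, 107, 70.4 and 56 CPM in FR3 sows, against 5.7, 7.9, 9.29, 10.1 and 31.7 CPM in control sows. All 15 inseminated sows lay above the control median, and CONTROL_5 lay inside the inseminated range. The fold change was 1.76 ± 0.54 (log2, SE; adjusted p = 0.0427, edgeR), and the call held in 8 of 20 fits that left out 1 library, with values from 1.57 to 2.40. Of the 19 genes in this list, which includes CD38, 10 had positive and 9 negative fold changes, with a median of 0.02.

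Of 26 other monocyte and macrophage genes, 0 were called higher and 2 lower, CD14 (-1.80 ± 0.47) and LYZ (-3.03 ± 0.64), and neither was called without CONTROL_3. Of 9 other neutrophil genes, 0 were called higher and 3 lower: MMP8 (-4.49 ± 0.88), IL1R2 (-3.58 ± 0.74) and LTF (-3.56 ± 0.94), by edgeR. IL1R2 was not called without CONTROL_3, and LTF, lactoferrin, had 89.1 CPM in CONTROL_4 and was not called without it. MMP8, neutrophil collagenase, had 0.105, 32.5, 2.52, 14.3 and 3.2 CPM in controls, against 14.6 CPM in FR3_5 and at most 0.456 CPM in the other inseminated sows. MMP8 remained called in each of 20 fits that left out 1 library, with values from -5.56 to -3.42. Of 24 other pan-leukocyte genes, 0 were called by edgeR, with 2 higher and 1 lower at an unadjusted p below 0.05.

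Markers of other cell types moved in the same comparison. Of 15 epithelial markers, 8 were called lower and 0 higher, and their summed level ranged from 1700 to 6920 CPM in inseminated sows and from 4930 to 8050 CPM in controls. Of 10 stromal fibroblast markers, 3 were called higher and 0 lower, with sums of 5050 to 18300 CPM in inseminated sows and 1900 to 9080 CPM in controls. No marker of smooth muscle (10 tested), endothelium (10 tested) or red blood cells (6 tested) was called. Of 5 mast cell markers tested, 2 were called higher, MS4A2 (1.93 ± 0.53) and KIT (1.09 ± 0.32), while the mast cell protease gene CPA3 was listed at 0 in all 20 libraries. When the 4 libraries with the lowest epithelial sums were left out, the T and NK median was -0.35, with 15 of 19 genes negative, and CD163 stood at 1.30 ± 0.44 (adjusted p = 0.0715, edgeR).

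Across the 20 libraries, T and NK genes tended to be high or low in the same libraries, while the B genes had weaker correlations with them and with each other. The median Pearson correlation of log2(CPM + 0.5) was 0.58 over the 171 pairs of T and NK genes, 0.42 over the 36 pairs of myeloid genes and 0.19 over the 3 pairs of B genes. Over the 171 pairs of a myeloid with a T and NK gene it was 0.46, so the myeloid genes were not more alike among themselves than with the T and NK genes. PTPRC and LAPTM5 had a median of 0.71 with the T and NK genes, 0.68 with the myeloid genes and 0.25 with the B genes. These values are a description, since all pairs share the same libraries and their tissue makeup.

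The genes most like each lineage anchor over the 20 libraries were ranked among all genes tested. CD3E was most like LCK (r = 0.922), CD3G (0.887), LOC102158035 (0.885), SASH3 (0.877) and PVRIG (0.873). Among the genes most like CSF1R were C1QA (0.894), SLA-DQA1 (0.877), GPSM3 (0.858) and LAPTM5 (0.857). CD79A was most like C8H4orf17 (0.788), SFXN5 (0.759), DEPDC4 (0.689), KLHL33 (0.684) and LOC100624218 (0.667), with no member among its nearest genes: its closest member, CD4, had r = 0.40 at rank 244.

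A total of 4 relations between lineage genes were tested over sows. CD3E and CSF1R had a Pearson r of 0.50 (n = 20, permutation p = 0.0247, adjusted p = 0.0988 over 4 pairs) and a Spearman rho of 0.51 (permutation p = 0.0238). Without CONTROL_4 and FR1_5, the 2 sows farthest from the CD3E median, r was 0.30 (permutation p = 0.227), and within the 15 inseminated sows it was 0.22 (permutation p = 0.432). CD3E and CD79A had an r of 0.18 (permutation p = 0.459) and a rho of -0.03 (permutation p = 0.91), and r was -0.39 without the same 2 sows (permutation p = 0.112). CD79A and CSF1R had an r of 0.29 (permutation p = 0.205) and a rho of 0.36 (permutation p = 0.118), with an r of 0.31 without FR1_5 and FR3_4. PTPRC and the epithelial adhesion gene EPCAM had an r of 0.38 (permutation p = 0.0958) and a rho of 0.31 (permutation p = 0.188), with an r of 0.26 without CONTROL_4 and FR1_4. No relation passed 0.05 after adjustment.

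**Figure D5:**
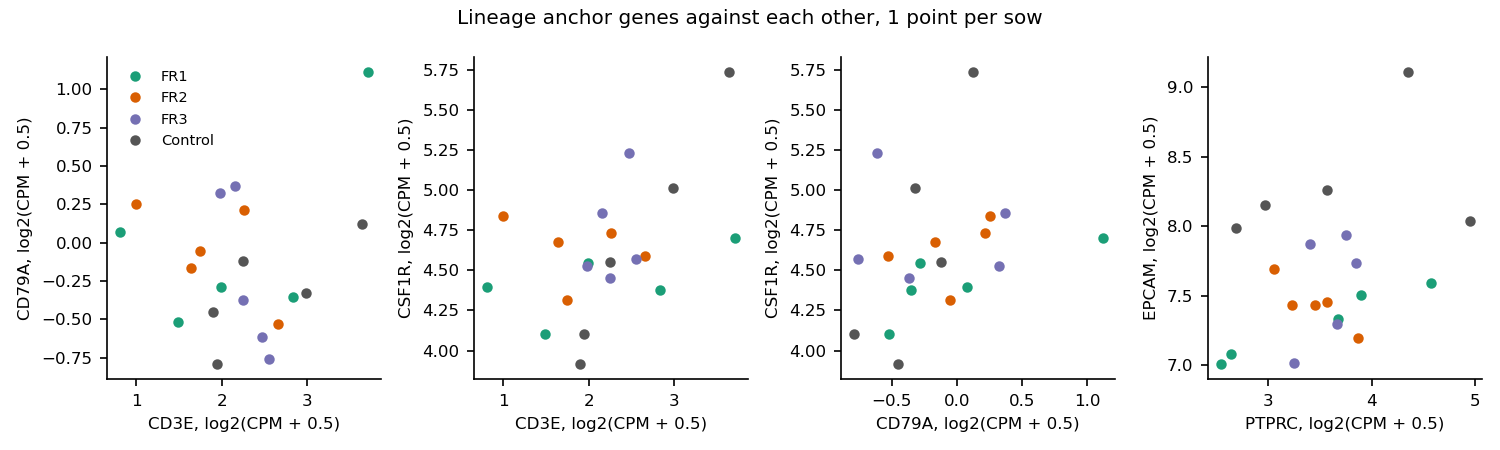
Lineage anchor genes plotted against each other as log2(CPM + 0.5), with 1 point per sow coloured by group: CD3E with CD79A (r = 0.18), CD3E with CSF1R (r = 0.50), CD79A with CSF1R (r = 0.29) and PTPRC with EPCAM (r = 0.38), n = 20 in each. In the first 2 panels the points at the far right are FR1_5 and CONTROL_4.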

How the data were processed

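Polyadenylated RNA from the uterus of 20 sows was sequenced as paired reads, and the submitters' processing notes name CASAVA, STAR 2.7.9a and Salmon 1.10.1. The deposited table holds estimated counts per gene, made by the authors and not normalized: 87.2% of values were whole within 1e-09. The genome build and the use of strand are not given in the sources used here, so overlapping genes on opposite strands cannot be told apart. The column names give each library's group, but not which numbered sow it came from. Libraries are therefore named by column, and 0 columns were left unused. Rows with no gene name (24 of 30369, 0.0036 to 0.0133% of each library) were left out. RefSeq's table for Sscrofa11.1 gave the same symbol for 30328 gene IDs and was used only for names and neighbours.

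Estimated counts were rounded and tested with edgeR 4.0.16 in R 4.3.3 (trimmed mean of M values, filterByExpr, quasi-likelihood test, 2-sided, Benjamini-Hochberg adjustment over 17745 genes, threshold 0.05), with all 4 groups in 1 fit and 7 comparisons. Normalization factors ran from 0.829 to 1.12. DESeq2 1.42.0, limma 3.58.1 (voom), an exact rank-sum test, other filters and left-out libraries were alternatives. Correlations used log2(CPM + 0.5) and 100000 permutations (Python 3.11.15, scipy 1.17.1). The scripts were tested on simulated data. No 2 libraries agreed within sampling noise (lowest pairwise chi-square 44.4 per gene). Each library is labelled as a separate sow, so p-values measure the spread between sows. Limits for counts of 0 cover counting error only.

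The members and the wider lists were chosen with earlier results of these data known, and no list is independent support. The genes described were the anchors CD3E, CD8A, GZMA, NKG7, CD79A, MS4A1, CSF1R, CD163, CSF3R and PTPRC, the member with the smallest p per lineage in each comparison, and called genes. Other members were added after their values were seen, to account for the whole set. The list of genes most like CSF1R is not complete, since 1 result is not reported here.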

Additional observations from a re-analysis of the deposited data

Results flagged for a closer look

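Single libraries stood apart from the other 4 of their group in 15 of 140 member-by-group sets tested with Dixon's criterion (gap over range above 0.71). Chance gives about 1 in 20 only where values are normally distributed. The criterion was applied to CPM without a log transform, and the share over all genes was not computed. The count therefore does not show an excess particular to these members. The 15 fall in 8 libraries. No explanation was tested.

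In the controls, CONTROL_3 was high in CSF3R at 77.3 CPM (others 0.301 to 2.38), PAX5 at 1.05 CPM (others 0.0209 to 0.232) and MS4A1 at 0.55 CPM (others 0 to 0.102). CONTROL_4 was high in LAPTM5 at 159 CPM (others 25.2 to 61.6), CD8A at 12.7 CPM (others 2.5 to 5.43) and KLRK1 at 12.3 CPM (others 2.33 to 5.05). CONTROL_1 was low in MRC1 at 1.07 CPM (others 2.38 to 2.62).

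Among inseminated sows, FR3_3 was high in SPI1 at 25 CPM (others 11.5 to 13.8), TYROBP at 14.5 CPM (others 8 to 9.09) and BLK at 1.05 CPM (others 0.137 to 0.242), and it also had the highest red blood cell sum. FR1_5 was high in CD79A at 1.67 CPM (others 0.198 to 0.552) and GZMB at 0.601 CPM (others 0.0959 to 0.235). CD79B was high in FR1_4 at 5.95 CPM (others 2.76 to 3.35) and in FR2_3 at 7.41 CPM (others 1.49 to 2.71), both libraries with a low epithelial sum. MS4A1 was detected in FR3_1 at 0.251 CPM and was at 0 in the other FR3 libraries.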

How the results depend on the processing

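The 34 alternatives were applied to 17 members in all inseminated sows against controls. Among the values, 536 kept their direction and side of the threshold, 31 changed sign, 6 newly passed the threshold and 2 no longer passed it. Thresholds of 0.1 and 0.01 reused the main fit, and the setting with only the libraries compared used the same 20 libraries. CD163 was 1.19 ± 0.45 in each of these, as in the main fit, so its sign was fixed in advance. Values of members that passed in neither fit also count as kept, as for MRC1 (adjusted p = 0.149 by edgeR and 0.263 by limma-voom). The 536 is therefore not a measure of robustness. No paired analysis was possible because the columns carry no sow numbers shared between groups. With 5 sows per group, CPM below about 0.1 rest on a few counts. Where a library was left out, the change depended on which library it was. The cause of the changes was not tested.

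Leaving out 1 library at a time gave log2 fold changes of -0.39 to 0.17 for CSF1R, -3.58 to 0.31 for CSF3R, -0.73 to 0.11 for LAPTM5, -0.59 to 0.04 for NKG7, -0.59 to 0.04 for PTPRC and -0.38 to 0.16 for SPI1. The positive ends came without CONTROL_4, and for CSF3R without CONTROL_3. With CONTROL_2 and CONTROL_3 left out, CD79B was -0.13 and CSF3R 0.69. With CONTROL_2, CONTROL_3 and CONTROL_4 left out, CD3E was 0.21, CSF1R 0.38, CSF3R 1.31, LAPTM5 0.12, NKG7 0.43, PRF1 0.07, PTPRC 0.30 and SPI1 0.11. With CONTROL_3 and CONTROL_4 left out, chosen after seeing the data, CD3E was 0.26, CD6 0.23, CSF1R 0.42, CSF3R 0.47, GZMA 0.31, LAPTM5 0.33, LCK 0.08, NKG7 0.54, PRF1 0.11, PTPRC 0.48 and SPI1 0.36. With CONTROL_4 and FR1_5 left out, also chosen after seeing the data, CSF1R was 0.13, LAPTM5 0.01 and SPI1 0.08. With the 4 libraries of low epithelial sum left out, CD79B was -0.12. The correlation of CD3E with CD79A was -0.39 without its 2 farthest sows.

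In all inseminated sows, members called higher numbered 1 (CD163) under DESeq2, at an adjusted p below 0.1 and with CONTROL_4 and FR1_5 left out, and 0 to 1 when 1 library was left out. Members called lower numbered 0 under DESeq2, limma-voom, the exact rank-sum test and each left-out set that held CONTROL_3, 2 at an adjusted p below 0.1, and 0 to 2 when 1 library was left out. In FR1, members called lower numbered 1 at an adjusted p below 0.1 and 0 to 1 when 1 library was left out. In FR2, members called higher numbered 1 under DESeq2, limma-voom, an adjusted p below 0.1 and with CONTROL_4 and FR1_5 left out, members called lower 1 at an adjusted p below 0.1, and each 0 to 1 when 1 library was left out. In FR3, members called higher numbered 1 under DESeq2, and both directions 0 to 1 when 1 library was left out. The whole table gave 510 higher and 1455 lower calls with edgeR, 952 and 1935 with DESeq2, 611 and 697 with limma-voom, 470 and 1640 with relative log expression factors, and 167 and 167 with the exact rank-sum test.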

Other observations

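A total of 7 ratios between members, drawn from the T cell, macrophage and pan-leukocyte markers, were computed, chosen after the data were seen and given without a test. The ratio of CD4 to CD8A in CPM had a median of 0.663 in FR1 sows (0.562 to 1.26), 0.496 in FR2 sows (0.396 to 0.895) and 0.505 in FR3 sows (0.116 to 1.72), against 0.311 in control sows (0.0918 to 0.401). Of the 15 inseminated sows, 13 lay above the highest control. The ratio of CD163 to CSF1R had a median of 0.281 in inseminated sows (0.0644 to 0.542) and 0.141 in controls (0.0245 to 0.157), with 14 of 15 inseminated sows above the highest control. FR1_4 was the exception. The ratio of CD163 to LAPTM5 lay above the highest control in 12 of 15 inseminated sows, that of MRC1 to CSF1R in 7 (against 12 for MRC1 alone), that of CSF1R to PTPRC in 4, that of CD3E to CSF1R in 3 and that of AIF1 to CSF1R in 0. CD3E to CSF1R lay below the lowest control in 10 of the 15. A ratio within a library shows unequal levels of its 2 genes and does not say which of them differed.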
